A study of Mus musculus with 7 samples.

Results

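Osr1 and Osr2 are the mouse odd-skipped related genes, and the binding sites of the transcription factors Shox2 and Pbx in the chromatin around them are described here. Members were chosen by position alone. They are all peaks whose midpoint lies in mm9 chromosome 12 from 9 to 10.2 Mb, the Osr1 locus of 1.2 Mb, or in chromosome 15 from 34.7 to 35.8 Mb, the Osr2 locus of 1.1 Mb. This gave 230 of the 91920 regions in the deposited lists. They comprised 102 of 33915 Shox2 limb peaks, 40 Shox2 palate peaks (0.265% of that list), 51 of 33915 Pbx limb peaks and 37 of 8999 regions listed as co-occupied by Shox2 and Pbx in limb. The co-occupied list is exactly the set of Shox2 limb peaks that overlap a Pbx limb peak by at least 1 bp. Each region has the same start and end as its Shox2 limb peak, so those 37 are among the 102. Leaving out that repetition, the loci held 64, 18 and 31 peaks of the Shox2 limb, Shox2 palate and Pbx limb lists at Osr1, and 38, 22 and 20 at Osr2.

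The lists come from chromatin immunoprecipitation followed by sequencing (ChIP-seq), in which fragments bound by a protein are recovered with an antibody and sequenced. Tissue was freshly dissected from mouse embryos at E12.5 (a stage in days of embryonic development). Shox2 was recovered with an anti-HA antibody from limb and from palate labelled Shox2-HA, HA being an epitope tag, and Pbx with an antibody against Pbx from limb. The labels give no strain, no allele other than the tag, no genotype for the Pbx sample and no number of embryos per library. Each of the 3 groups used had 1 library, with no replicate, and the other 4 libraries of the series were not analysed here. The lists give positions without heights or scores, so the sequencing depth is unknown and no value below has a replicate error. Peaks are called from bulk tissue, so few cells with strong binding and many with weak binding cannot be told apart.

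Osr1 and Osr2 encode zinc finger transcription factors. Osr1 marks early intermediate mesoderm and is needed for kidney and heart development, and in the limb it marks progenitors of the connective tissue around muscle. Osr2 is needed for the growth of the palatal shelves and restricts teeth to a single row, and both genes act together in the forming joints of the limb. Shox2, a homeodomain factor, is needed for the proximal limb skeleton and for the anterior palate. Pbx proteins are homeodomain factors of the TALE class, which bind DNA together with other homeodomain proteins such as Hox and Meis. In the GRCm38 gene table, Osr1 stands between Ttc32 and Nt5c1b among protein-coding genes, and Osr2 between Stk3, a kinase of the Hippo pathway, and Vps13b, a gene for a lipid transfer protein of the Golgi. That table is of another build, so positions of genes were not taken from it. Distances below are to 9.58 Mb for Osr1 and 35.23 Mb for Osr2, which are known only to the nearest 10 kb. Whether a peak lies in a promoter, an exon or an intron, or inside a neighbour such as Vps13b, was therefore not determined.

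Both loci were rich in Shox2 limb peaks. The 1 Mb window that holds Osr1 (chromosome 12 from 9 to 10 Mb) had 47 of them, against a median of 11 over the 2506 windows with any peak, and 48 windows had more. The window that holds Osr2 (chromosome 15 from 35 to 36 Mb) had 38, and 104 windows had more. Palate Shox2 and limb Pbx peaks were also above their medians in both windows. The Osr1 window had 15 palate peaks and the Osr2 window 13, against a median of 5. For limb Pbx the counts were 27 and 22, against a median of 10. By rank among these 3 lists, Shox2 limb stood furthest up, with fewer peaks in 97.9% of windows than at Osr1 and in 95.6% than at Osr2, and Pbx least far, with 86.6% and 78.9%.

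**Figure D1:**
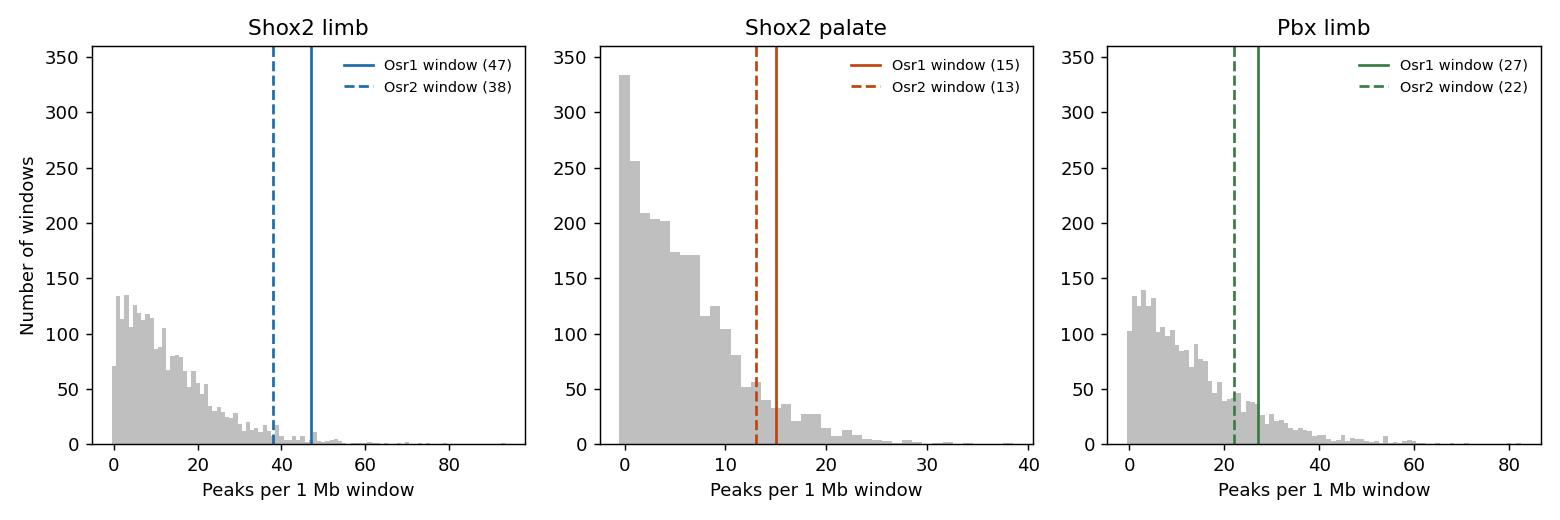
Number of 1 Mb windows (vertical axis) by the peaks they hold (horizontal axis) for the Shox2 limb, Shox2 palate and Pbx limb lists, over the 2506 windows with a peak in any list. Lines mark the windows that hold Osr1 (solid; 47, 15 and 27 peaks) and Osr2 (dashed; 38, 13 and 22 peaks), all of them to the right of the medians of 11, 5 and 10.

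Around Osr1 the Shox2 limb peaks filled both sides of the gene. There were 31 in the 580 kb on the side of lower coordinates, toward Ttc32, and 33 in the 620 kb on the other side, toward Nt5c1b, which is 53.4 and 53.2 per Mb. Pbx limb peaks numbered 18 and 13 on these sides, and palate Shox2 peaks 12 and 6. The Shox2 limb peaks were densest from 9.3 to 9.4 Mb and again from 10 to 10.1 Mb, with 10 in each stretch of 100 kb. Palate positions were densest elsewhere, with 5 from 9.1 to 9.2 Mb. Between the Shox2 limb peak that ends at 9598120 and the one that starts at 9739231 none was listed, a gap of 141 kb on the higher side of Osr1. A single palate position, at 9619847, lay in that gap.

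Around Osr2 the limb peaks lay mostly on 1 side. Of 38 Shox2 limb peaks, 11 fell in the 530 kb toward Stk3 and 27 in the 570 kb toward Vps13b, which is 20.8 and 47.4 per Mb. Pbx limb peaks followed the same side, with 4 and 16. The co-occupied regions, with 2 and 10, are the Shox2 limb peaks that overlap Pbx and so give no separate evidence of a side. Palate Shox2 peaks did not lie mostly toward Vps13b, with 12 and 10. No limb Shox2 peak was listed from 34.7 to 34.8 Mb, where the palate list had 4 positions, its highest number in 100 kb at this locus (shared with the stretches from 34.9 and from 35.5 Mb). The densest stretches in limb were 35.7 to 35.8 Mb for Shox2, with 9 peaks, and 35.4 to 35.5 Mb for Pbx, with 6. Across the rounded Osr2 position and mostly above it, the 186 kb between the Shox2 limb peak that ends at 35225343 and the one that starts at 35411521 held no other.

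**Figure D2:**
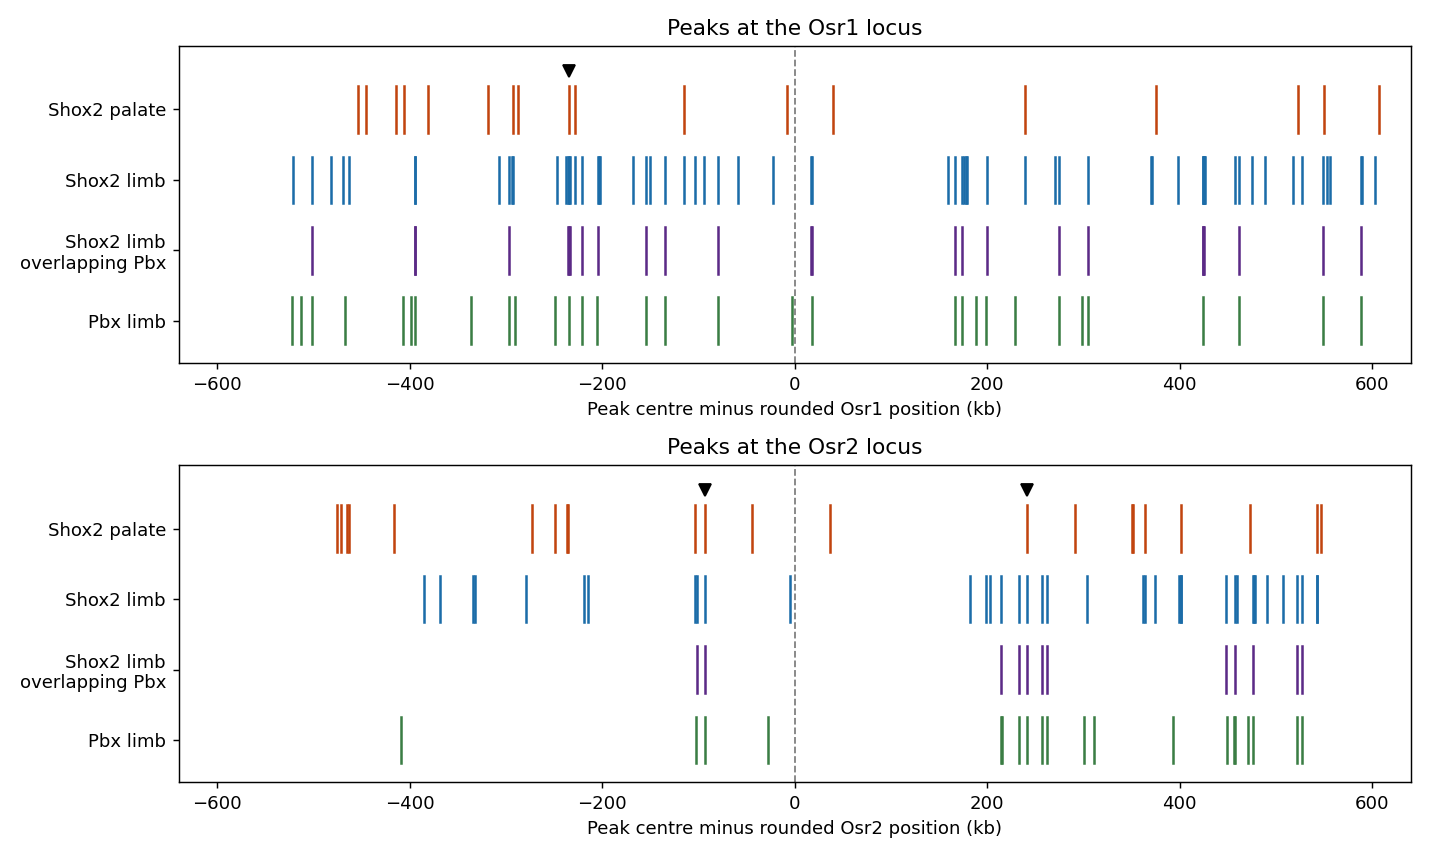
Each tick is the centre of a peak at the Osr1 locus (top) or Osr2 locus (bottom), by its distance in kb from the rounded gene position (dashed line), with 1 row per list and a row for the Shox2 limb peaks that overlap Pbx (25 and 12). Triangles mark sites found in all 3 lists, 1 at Osr1 and 2 at Osr2. Empty stretches can be seen in the Shox2 limb row, at 18 to 159 kb above Osr1 and at -5 to 182 kb across the Osr2 position.

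**Figure D3:**
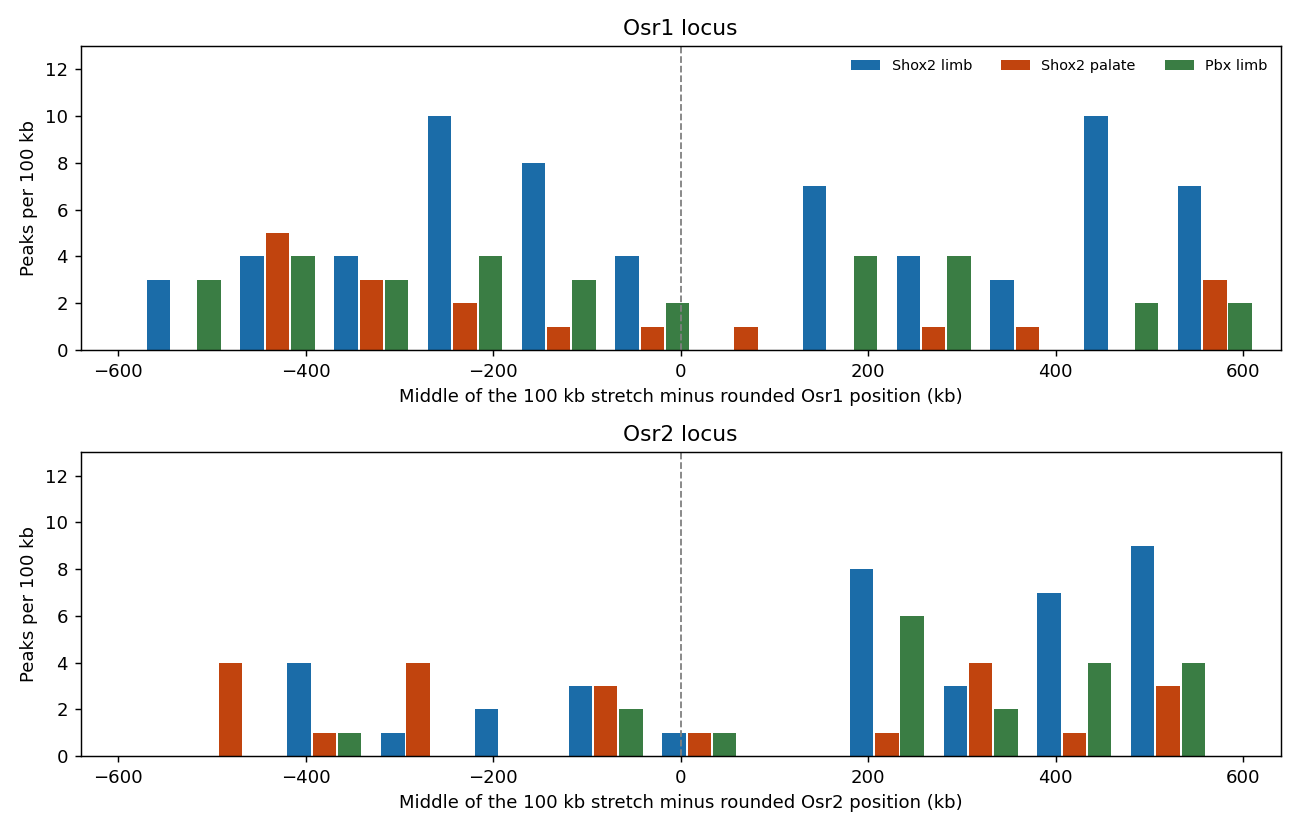
Peaks per 100 kb (vertical axis) for the Shox2 limb, Shox2 palate and Pbx limb lists, by the distance of the stretch from the rounded gene position in kb, with the 3 bars of a stretch drawn side by side. At Osr1 the limb counts are high on both sides, with 10 in the highest stretches, and at Osr2 they are higher on the right, where up to 9 Shox2 and 6 Pbx peaks fall in 100 kb.

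Close to the genes the lists differed. At Osr1 the nearest peak of all was bound by Pbx: chr12:9576401-9577436, 1036 bp wide, with its centre 3 kb below the rounded gene position. It met no Shox2 peak of either tissue. The nearest palate position, 9571986, lay 8 kb below and stood on line 809 of the palate list, in its first 5.36%. It was the first in file order of all 18 palate positions at this locus. No limb peak covered it: the nearest Shox2 limb peak ended or began 14.3 kb away and the nearest Pbx peak 4.42 kb away. The nearest Shox2 limb peaks were chr12:9557366-9557729, 22 kb below the gene and free of Pbx, and on the other side chr12:9597291-9597498, 17 kb above it. The latter and its neighbour chr12:9597784-9598120 both overlapped a single Pbx peak, chr12:9597015-9598200. Within 50 kb of Osr1 there were thus 3 Shox2 limb, 2 Shox2 palate and 2 Pbx limb peaks.

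At Osr2 the nearest peak was Shox2 in limb: chr15:35224867-35225343, 477 bp wide, centred 5 kb below the rounded gene position. It overlapped neither a Pbx peak nor a palate position and stood on line 17985 of 33915, near the middle of the list. The nearest Pbx peak, chr15:35201548-35202372, was 28 kb below the gene and met no Shox2 peak. Palate Shox2 flanked the gene at 35185793, 44 kb below, and at 35266874, 37 kb above, both outside every limb peak. The first of these stood on line 1619, higher in the palate list than any other position at this locus. Within 50 kb of Osr2 on either side there were 1 Shox2 limb, 2 palate and 1 Pbx peak. For comparison, the whole locus held 34.5, 20 and 18.2 per Mb, and the median 1 Mb window 11, 5 and 10 peaks. Limb peaks were thus few here only beside the rest of the locus. Above the gene the nearest limb peaks were 182 kb (Shox2) and 214 kb (Pbx) away.

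Shox2 limb peaks were compared with Pbx limb peaks, to see how far both factors share sites, by overlap of at least 1 bp. At Osr1, 25 of 64 Shox2 limb peaks met a Pbx peak (39.1%, exact Clopper-Pearson 95% interval 27.1 to 52.1%), and at Osr2 12 of 38 did (31.6%, 17.5 to 48.7%). Over the whole Shox2 limb list the share was 26.5%. These intervals cover counting error only and treat neighbouring peaks as independent, which makes them too narrow. The lower bound at Osr1 was just above the share of the whole list, and the interval at Osr2 included it. The share depended on peak width at Osr1: with every peak set to 200 bp around its centre it was 20.3% there and 23.7% at Osr2, against 16.4% over the whole list. The order of the loci was thus reversed.

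By overlap of at least 1 bp, most Pbx limb peaks at both loci lay on Shox2. This share was not computed again with every peak set to 200 bp, so its dependence on peak width is unknown. At Osr1, 19 of 31 Pbx peaks overlapped a Shox2 limb peak (61.3%, interval 42.2 to 78.2%), and at Osr2 12 of 20 did (60%, 36.1 to 80.9%), against 23.4% of the whole Pbx list. How this share varies with the density of Shox2 peaks was not computed, and only windows of like density were set beside the loci. In the other 215 windows of 1 Mb with 30 to 60 Shox2 limb peaks, a range chosen after the counts were seen, the median share of Pbx peaks on Shox2 was 48.5% (quartiles 38.5 and 58.3%). The Osr1 window had 55.6% and the Osr2 window 63.6%, against which 67 and 36 of those windows were higher. The share of Shox2 peaks on Pbx in the same windows had a median of 29.4% (quartiles 22 and 37%), with 40.4% in the Osr1 window and 36.8% in the Osr2 window. For the share of Shox2 peaks on Pbx, 36 and 54 of the 215 windows were higher. Both loci thus stood above the median of windows of like density for each share, and within their range.

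**Figure D4:**
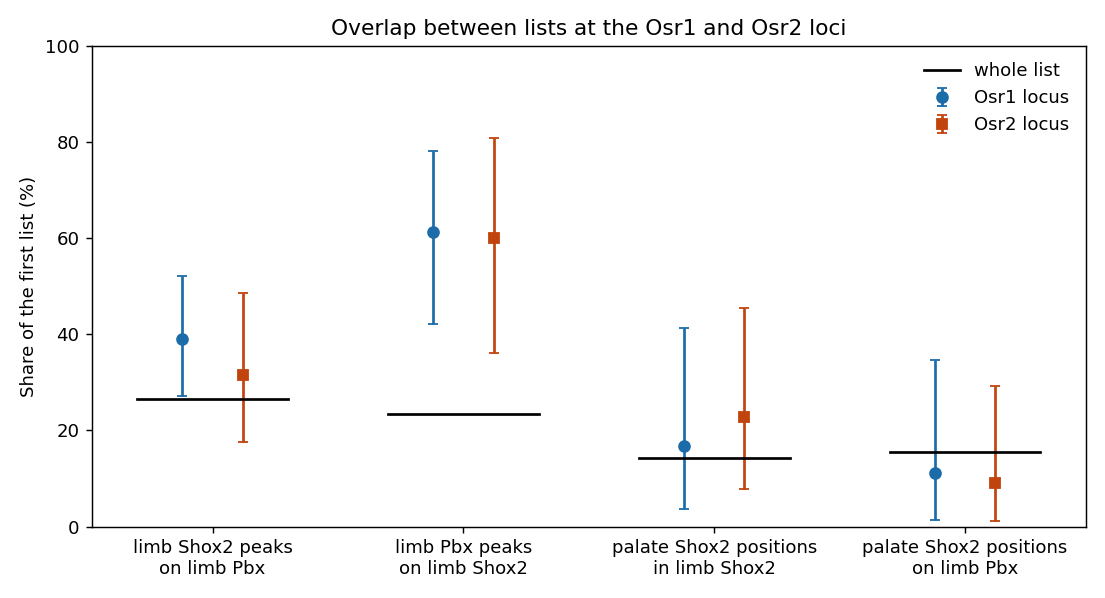
Share of the first-named list, in %, that overlaps the second by at least 1 bp, for the Osr1 locus (circles) and the Osr2 locus (squares), with exact 95% intervals for counting error and the share over the whole list as a black line. The shares of Pbx peaks on Shox2, 61.3 and 60%, lie farthest from their line at 23.4%, and the 2 palate comparisons have intervals that include theirs.

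The distance between the centres of both factors was measured at co-occupied sites, where the overlap rule itself limits it. The median distance from the centre of a Shox2 peak to that of the nearest overlapping Pbx peak was 190 bp at Osr1 (range 10 to 1162 bp) and 125 bp at Osr2 (range 1 to 494 bp), against 142 bp over the 8999 sites of the whole list. Of these Shox2 peaks, 22 of 25 at Osr1 (88%) and 11 of 12 at Osr2 (91.7%) lay wholly within the Pbx peak, near the 87.5% of the whole list. At Osr1 several Shox2 peaks could share 1 Pbx peak, since the 25 met only 19 of them, while at Osr2 the 12 met 12.

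The first 3 Shox2 limb peaks in file order at each locus were all wider than the median of the whole list, 261 bp. A wide peak could also stand low: chr12:9341770-9342335, of 566 bp, was on line 28610. How width and line number relate over the whole list was not computed, and nothing in the file says what its order means. At Osr1 the first was chr12:9375271-9376026, 756 bp wide, on line 36 of 33915 and 204 kb below the gene. It overlapped a Pbx peak of 1456 bp, chr12:9374718-9376173, on line 2109 of the Pbx list. The second, chr12:9476661-9477119 on line 1568, and the third, chr12:9332713-9333687 on line 1600, met no Pbx peak. The third was the widest Shox2 limb peak at the locus, with 975 bp, and 0.99% of the list was wider. At Osr2 the first 2 peaks both lay on Pbx, far up the Vps13b side. They were chr15:35705246-35705999 on line 471, 476 kb above the gene, and chr15:35491225-35491992 on line 483, 262 kb above it. The third, chr15:35689916-35690292 on line 895, lay off Pbx. It was 377 bp wide, and 24% of the list was wider.

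Among the Pbx peaks at Osr1, chr12:9344151-9348245 stood apart by its width of 4095 bp, which 101 Pbx peaks of the whole list (0.3%) exceeded. It stood on line 560, first among the Pbx peaks of the locus, and contained 3 Shox2 limb peaks of 847, 646 and 195 bp. Next in file order were chr12:9243771-9244868 on line 854, which met no Shox2 peak, and chr12:9077851-9078840 on line 1678, which met 1. At Osr2 the widest Pbx peak was chr15:35442686-35444859 with 2174 bp, over a Shox2 limb peak of only 173 bp. The next widest, of 1618 and 1487 bp, were chr15:35469847-35471464 and chr15:35462375-35463861, and both also held a Shox2 limb peak. In file order the first Pbx peaks at Osr2 were those of 1097, 1094 and 1084 bp centred 262, 476 and 458 kb above the gene, on lines 4958, 5787 and 6595. All of them overlapped Shox2, and the first 2 lay under the Shox2 peaks that led that list at this locus.

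Co-occupied and other Shox2 limb peaks differed in their place in the list. At Osr1 the median place was 32% down the list for peaks on Pbx and 45.3% for the others, and at Osr2 it was 29.5% and 44.9%, against 33.6% and 55% over the whole list. Of the 15 Osr1 peaks in the first 10% of the list 9 lay on Pbx, and of the 6 at Osr2 3 did, which is 60% and 50% against 55.9% over the whole first 10%. In the last 50% of the list the share was 33.3% at Osr1 (9 of 27) and 14.3% at Osr2 (2 of 14), against 18.5%. The gap between the loci was thus wider in the lower part of the list, where counts were small, and was not tested. Peaks on Pbx had a median width of 316 bp at Osr1 and 350.5 bp at Osr2, against 326 bp over the whole list. The others had 313 and 304 bp, against 245 bp.

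**Figure D5:**
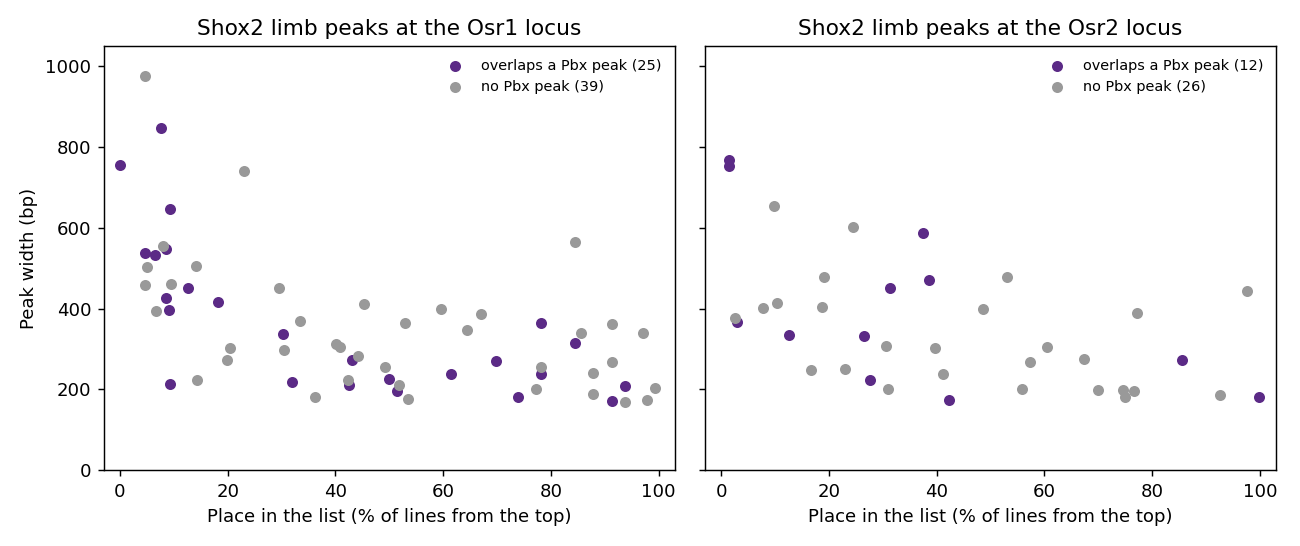
Width in bp (vertical axis) of each Shox2 limb peak at the Osr1 locus (left) and the Osr2 locus (right) by its place in the list in % of lines from the top. Dark points are the 25 and 12 peaks that overlap Pbx and grey points the 39 and 26 that do not. The 3 widest peaks at each locus stand in the first 10% of the list, with the Osr1 peak of 756 bp at the far left. An Osr1 peak of 566 bp stands far down, at 84.4%.

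Many Shox2 limb peaks at both loci had a close neighbour. Of the Osr1 peaks 36 of 64 (56.2%), and of the Osr2 peaks 24 of 38 (63.2%), had another Shox2 limb peak with its centre within 5 kb, against 35% of the whole list. How this share varies with density was not computed either. In the same 215 windows of 30 to 60 Shox2 limb peaks the median share with such a neighbour was 50% (quartiles 41.1 and 58.1%). The Osr1 window had 51.1% and the Osr2 window 68.4%, against which 105 and 6 of those windows were higher. Osr1 had 6 groups of at least 3 peaks and Osr2 had 2. The largest held 5 peaks in 2.7 kb at chr12:10003461-10006121, 425 kb above Osr1, of which 3 lay on 1 Pbx peak. A group of 4 at chr12:9341770-9346674, 236 kb below the gene, lay mostly on the Pbx peak of 4095 bp and held a palate position. Another group of 4, at chr12:9754300-9759344, had 1 peak on Pbx. At Osr2 the groups were chr15:35628908-35632740, with 0 of 3 peaks on Pbx but 1 palate position, and chr15:35705246-35708395, with 1 of 3 on Pbx.

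Palate and limb Shox2 were compared at the same stage, to see which sites the tissues share. At Osr1, 3 of 18 palate positions lay inside a Shox2 limb peak (16.7%, exact interval 3.58 to 41.4%), and at Osr2 5 of 22 did (22.7%, 7.82 to 45.4%), against 14.2% of the whole palate list. Both intervals included that share. Palate peaks are listed as 1 bp, so a shared site needs that position inside a limb peak. Within 500 bp of a Shox2 limb peak centre lay 5 of 18 positions at Osr1 (27.8%) and 6 of 22 at Osr2 (27.3%). No share of the whole list is at hand for that rule. From the limb side, 3 of 64 Shox2 limb peaks at Osr1 (4.69%) and 5 of 38 at Osr2 (13.2%) held a palate position, against 6.28% over the whole list. Neither a Pbx peak nor a palate position was met by 37 of 64 (57.8%) and 23 of 38 (60.5%) of them, against 69.5% over the whole list. Absence from 1 of the lists is no evidence that a site was free of Shox2 there. At all 8 shared sites 15 to 61 bp lay between the palate position and the centre of the limb peak, where the limb peaks were 189 to 655 bp wide. A shared position lies inside the limb peak by definition, which limits this distance. It was not compared with the whole list.

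The shared sites at Osr1 were at 9345970 and 9352379, 234 and 228 kb below the gene, and at 9819340, 239 kb above it. Only the first of these was also on Pbx. At Osr2, 1 shared site lay on the Stk3 side, 35137177, 93 kb below the gene. The other 4 lay on the Vps13b side, at 35470536, 35593846, 35632433 and 35772609. The limb peaks that held the 5 shared sites at Osr2 ranged from line 972 to line 12733 of 33915, all in the first 50% of the limb list. At Osr1 the shared limb peaks were on lines 3150, 17562 and 29809. Of all Shox2 limb peaks, 24 of 38 at Osr2 and 37 of 64 at Osr1 stood in the first 50%. A difference in place between shared and other limb peaks was not tested.

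Some palate positions fell just outside a Shox2 limb peak. Outside but within 1 kb lay 3 of 18 at Osr1 and 1 of 22 at Osr2, against 1103 of 15088 over the whole palate list. At Osr1 the position 9287407 was 2 bp beyond the end of the limb peak chr12:9286903-9287405, and 9465221 was 18 bp beyond chr12:9464891-9465203. Both stood low in the palate list, on lines 14169 and 14054. The third, 10129690, was 427 bp from a Shox2 limb peak. At Osr2 the closest miss was 35126711, 328 bp from chr15:35127039-35127237. The median distance of a palate position to the nearest Shox2 limb peak was 4.92 kb at Osr1 and 11.9 kb at Osr2, against 18.2 kb over the whole palate list. Such distances depend on the density of Shox2 limb peaks, which was high here (53.3 and 34.5 per Mb). They were not compared with windows of like density. At Osr2 the palate positions from 34754439 to 34767167 lay farthest off, 77.5 to 85.3 kb from any Shox2 limb peak, in the stretch from 34.7 to 34.8 Mb where neither limb list had a peak.

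Palate Shox2 was also set against the Pbx sites of the limb, since Pbx was profiled there. At Osr1, 2 of 18 palate positions lay in a limb Pbx peak (11.1%, exact interval 1.38 to 34.7%), and at Osr2 2 of 22 did (9.09%, 1.12 to 29.2%), against 15.6% of the whole palate list, which both intervals included. At Osr1 these were 9345970 and 9173622, and the latter, 406 kb below the gene in the Pbx peak chr12:9172840-9174123, met no Shox2 limb peak. At Osr2 both positions on Pbx were also in Shox2 limb peaks. At Osr1, 14 of 18 palate positions (77.8%), and at Osr2 17 of 22 (77.3%), lay in neither limb list, against 75.3% of the whole list.

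The sites found in all 3 lists numbered 3, and made up 2.94% of the 102 Shox2 limb peaks against 2.3% of the whole list. At Osr1 the site was the limb peak chr12:9345664-9346309, 646 bp wide on line 3150, inside the Pbx peak of 4095 bp and with the palate position 16 bp from its centre. Its palate position stood on line 1200, so the site was in the first 10% of all 3 lists. The first site at Osr2 was chr15:35137055-35137421 on line 972, 93 kb below the gene toward Stk3, within the Pbx peak chr15:35136719-35137536. The Pbx peak stood low in its list there, on line 25627 of 33915, and the palate position was on line 6294. The other was chr15:35470228-35470814 on line 12733, 241 kb above Osr2, with Pbx on line 19918 and the palate position on line 12228. These differ from the Osr1 site in standing high in at most 1 list.

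Whether the lists were spread differently at these loci was tested over all 1 Mb windows with at least 5 peaks (two-sided Fisher's exact test, peaks of each list inside against outside the window, Benjamini-Hochberg adjustment over all windows, threshold 0.05). For limb against palate Shox2, 16% of 2259 windows were called. The Osr1 window, with 47 limb and 15 palate peaks, was not among them (odds ratio 1.36, exact test, adjusted p = 0.543), nor was the Osr2 window, with 38 and 13 (odds ratio 1.27, exact test, adjusted p = 0.654). Where windows begin moved both values: shifted by 500 kb, the window from 9.5 to 10.5 Mb of chromosome 12 held 56 peaks in limb and 11 in palate (odds ratio 2.19, exact test, adjusted p = 0.0656), and that from 34.5 to 35.5 Mb of chromosome 15 held 30 and 19, with the direction reversed (odds ratio 0.696, exact test, adjusted p = 0.412). For limb Shox2 against limb Pbx, 29.9% of 2334 windows were called. The Osr1 window leaned toward Shox2, with 47 against 27 peaks, and was not called (odds ratio 1.73, exact test, unadjusted p = 0.0264, adjusted p = 0.0761). The Osr2 window had 38 against 22 (odds ratio 1.71, exact test, adjusted p = 0.124). For this contrast the call itself turned on where windows begin. In the shifted windows, chromosome 12 had 56 against 24 peaks (odds ratio 2.31, exact test, adjusted p = 0.0033) and chromosome 15 had 30 against 13 (odds ratio 2.26, exact test, adjusted p = 0.0461). Both then passed, where 29.8% of 2361 shifted windows were called.

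The share of Shox2 limb peaks on Pbx was tested in the same way over 1947 windows with at least 5 Shox2 limb peaks, and 0.976% were called, all with a higher share. The Osr1 window, with 19 of 47 peaks on Pbx, was not called (odds ratio 1.9, exact test, unadjusted p = 0.0454, adjusted p = 0.423). Nor was the Osr2 window, with 14 of 38 (odds ratio 1.64, exact test, adjusted p = 0.672). The 3 contrasts share the Shox2 limb list. With 1 library per group they compare lists and not conditions, and since neighbouring peaks are not independent the p-values are too small. A p above the threshold does not show that the lists were spread alike.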

How the data were processed

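Per the submitters' processing notes, the authors used Bowtie and MACS2 with the mouse build mm9. The sources used here do not give their versions, settings or the cutoff of each list. Deposited lists hold a chromosome, a start and an end per peak, without a header, height or score, and palate peaks are 1 bp wide. Start positions were raised by 1 to be counted from 1. No mm9 genome or annotation was used, no coordinate was converted, and Osr1 and Osr2 had no entry in the RefSeq promoter table, so no sequence is shown. The members, gene positions and lists were chosen with earlier results of these data known. Peaks sharing at least 1 bp counted as overlapping, shares were given exact 95% intervals, and windows were tested with Fisher's exact test (0.5 added to each cell for odds ratios). The code was tested on simulated data. Peaks named were those nearest to each gene, the 3 widest, the 3 first in file order and those in all 3 lists. Groups of peaks and palate positions just outside limb peaks were added after their values were seen. Alternatives were other locus edges, overlap rules, list lengths and windows. Python 3.11.15, NumPy 2.4.6, SciPy 1.17.1 and matplotlib 3.10.9 were used.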

Additional observations from a re-analysis of the deposited data

How the results depend on the processing

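Of 14 alternatives for the window tests at the loci, 11 kept direction and call. With windows shifted by 500 kb, limb against palate Shox2 at Osr2 turned from an odds ratio of 1.27 to 0.696, uncalled both times, and limb Shox2 against Pbx became called at Osr1 (2.31) and Osr2 (2.26). Windows of 500 kb left that contrast uncalled at both. Genome-wide, windows of 500 kb called 218 in place of 361 windows between limb and palate, and the other 5 counts stayed within 1.5 times. As shares of the windows tested, whose number changes too, windows of 500 kb gave 6.21% (16% before), 14% for limb Shox2 against Pbx (29.9%) and 0.605% for the co-occupied share (0.976%), and at least 10 peaks per window gave 1.91% for the last. Setting every peak to 200 bp lowered the share of Shox2 limb peaks on Pbx at Osr1 from 39.1 to 20.3%, and the other 9 alternatives of the 6 shares stayed within their intervals. Counts fell by construction with narrower edges or shorter lists. Within 250 kb of the gene, Osr1 had 30 Shox2 limb, 6 palate, 14 Pbx and 13 co-occupied peaks, and Osr2 12, 8, 7 and 5. Cut from the end to the length of the palate list, the limb lists held 34 Shox2 and 17 Pbx peaks at Osr1, and 23 and 11 at Osr2. No paired analysis was possible because there was 1 library for each group, for which reason none was left out either. Without depth, an unbound site and one below the cutoff of its list cannot be told apart.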

Other observations

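When overlapping peaks of the 3 lists were merged, the Osr1 locus held 84 separate regions and the Osr2 locus 63. Regions of more than 1 list were 22 at Osr1 (26.2%) and 15 at Osr2 (23.8%), against 15% of 70193 regions genome-wide. Shox2 limb with Pbx was the most frequent pair, with 18 regions at Osr1 (21.4%) and 10 at Osr2 (15.9%), against 9.84% genome-wide. Regions of Pbx alone were 11 (13.1%) and 8 (12.7%), against 35.3% genome-wide, and regions of palate Shox2 alone were 14 (16.7%) and 17 (27%), against 16.2%. Limb and palate Shox2 without Pbx gave 2 (2.38%) and 3 (4.76%) regions, against 1.92%, and palate Shox2 with Pbx but without limb Shox2 gave 1 (1.19%) and 0, against 1.77%. All of these shares depend on how many peaks each list has. Shox2 limb peaks outnumbered Pbx limb peaks at Osr1 (64 against 31) and Osr2 (38 against 20), while both whole lists hold 33915. Windows of like density were not compared, and these counts were not tested.

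Pbx limb peaks on and off Shox2 did not differ in the same way at the loci. At Osr1 the 12 Pbx peaks without Shox2 stood higher in the Pbx list than the 19 with it (median place 36.4 against 51.6% from the top), and at Osr2 the 8 without stood lower than the 12 with it (51.4 against 37.4%). The whole list had 54.9% without and 33% with Shox2, the order seen at Osr2. Nothing in the files says what their order means, and this difference was not tested.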
